A study of Mus musculus with 12 samples.

Results

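The genes described here are 10 feedback inhibitors and stress adaptors of the MAP kinase pathways, measured in mouse cytotoxic T lymphocytes (CTL): the dual specificity phosphatases Dusp1, Dusp2, Dusp4, Dusp5, Dusp6 and Dusp10, the Sprouty proteins Spry1 and Spry2, and the Gadd45 proteins Gadd45b and Gadd45g. They were chosen by name, and every probe set annotated to a listed gene was taken. This gave 14 probe sets, of which 0 name several genes, and the brightest probe set of a gene over the 12 arrays stands for it. All 10 were measured, among 18193 genes with a probe set of their own.

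MAP kinases are switched on by a cascade of kinases that ends in phosphorylation of a threonine and a tyrosine of ERK, p38 or JNK. Dual specificity phosphatases remove these phosphates, Sprouty proteins damp the signal between receptors and Ras to ERK, and Gadd45 proteins bind and activate the kinase Map3k4 above p38 and JNK. Most of these genes are themselves transcribed in response to MAP kinase, antigen receptor or cytokine signals, so that their mRNA is often read as a trace of recent signalling.

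RNA was compared in 4 groups of 3 arrays, in experiments that were run separately. In the Pdpk1 experiment, Cre control CTL carried C57BL/6GT(ROSA)26tm9(creEsr1)Arte, called TamoxCre, and Pdpk1-null CTL were PDK1fl/fl TamoxCre, and both genotypes had 0.6 μM 4OHT over the final 72 hr of culture. In the Akt experiment, cells of 3 C57/B6 mice were grown in IL-2 alone or, for another portion of the same culture, with 1 μM of the Akt inhibitor AktI-1/2 (AktI) over the final 48 hr. All groups were grown from splenocytes activated for 48 hr by the CD3 antibody 2C11 at 0.5 μg/ml and then kept for 5 days in 20 ng/ml IL-2. For the Akt experiment the study also states IL-2 during activation. The Cre recombinase sits in the ROSA26 locus, which is active in all cell types, so deletion was not limited to T cells, and both genotypes carry it. Ages were not given in the sources used here beyond being matched. Pdpk1 encodes PDK1, the kinase that activates Akt and other kinases of its family, and the comparisons ask what loss of all PDK1 output, or of Akt activity alone, did to these transcripts in cells kept in IL-2.

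In the Pdpk1 experiment array medians were 4.60 to 4.62 on the log2 scale. Those of the Akt experiment were 5.10 to 5.14, so effects and not levels were compared between experiments. The background level was 4.45 and 4.99 in turn, below which 95% of 80 olfactory and vomeronasal receptor probe sets lay by their mean. Pdpk1 itself showed a log2 fold change of 0.05 (standard error 0.0693, limma adjusted p = 0.822) in Pdpk1-null CTL, but its probe sets are not known to lie in the deleted part, so this does not check the genotype. The T cell markers Cd3d, Cd3e, Cd3g, Cd8a, Cd8b1, Cd2, Prf1, Gzma and Gzmb were above background in every group. These were the 9 measured of 10 listed, and Lck was not measured. Markers of other cells were present at differing levels. The summed linear signal of the 9 measured of 10 myeloid markers was 328 to 354 in Cre control, 422 to 460 in Pdpk1-null, 386 to 474 in IL-2 and 314 to 322 in AktI cultures, with Itgam, Adgre1, Cybb and S100a8 at or below background in all groups. For the 5 measured of 6 mast cell and basophil markers it was 258 to 429, 277 to 403, 118 to 172 and 103 to 122, with Fcer1a and Ms4a2 at or below background in all groups. B cell markers (7 measured of 8) summed to 661 to 823, 829 to 1149, 2576 to 5346 and 1763 to 3323, with Ms4a1 and Blnk at or below background in all groups. The immunoglobulin gene Ighm was bright among them, with mean log2 signals of 9.25, 9.61, 11.75 and 11.18 in the same order of groups. The CD4 T cell markers (3 measured of 3) summed to 118 to 169 in linear signal over all arrays with Foxp3 at or below background, and the 1 measured of 3 NK cell markers, Ncr1, was below background in all groups. In cultures measured in bulk, fewer cells of a type and less RNA per cell cannot be told apart.

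Gadd45g and Dusp1 were the members that fell with AktI, and no member rose or fell after Pdpk1 deletion. A change passed at a limma adjusted p under 0.05, over all probe sets, and at least 1.5-fold. With AktI, 2 of the 10 genes fell and 0 rose, where 1.03% of all genes fell and 1.51% rose. At an unadjusted p under 0.05, 5 were lower and 1 higher with AktI, against 10.7% and 9.62% of all genes. After Pdpk1 deletion 0 of the 10 rose and 0 fell by limma, where 1.01% of all genes rose and 0.357% fell. At an unadjusted p under 0.05, 3 were higher and 3 lower, against 8.22% and 9.04% of all genes. SAM, the test of the study's methods, passed the same count of 2 falls with AktI. It was used with the same 1.5-fold minimum. No member reached that minimum after deletion, so neither SAM nor limma could pass any of the 10 there. The median log2 fold change of the 10 genes was -0.24 with AktI (-0.02 over all genes) and -0.13 after deletion (-0.01 over all genes). Of the log2 fold changes, 8 were below 0 with AktI and 6 after deletion. With AktI their effects ran from -1.40 to 0.44, and after deletion from -0.46 to 0.34.

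**Figure D1:**
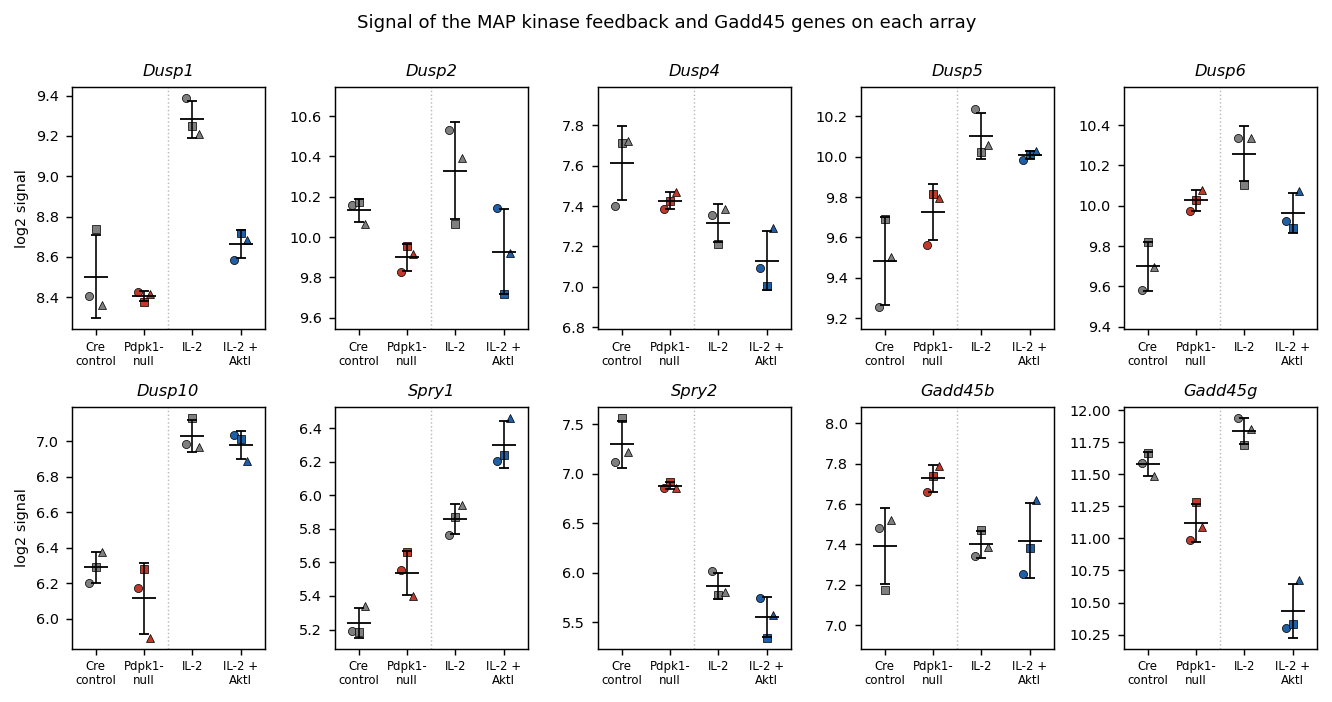
Log2 signal of the brightest probe set of each of the 10 genes on all 12 arrays. Circles, squares and triangles are replicates 1, 2 and 3, which in the IL-2 and AktI groups are the same mice; bars are the mean ± SD (n = 3), and the dotted line separates the experiments, whose levels are not compared. The 3 AktI arrays of Gadd45g lie at 10.30 to 10.67, below the 11.73 to 11.93 of IL-2 alone.

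The DNA just before the starts of the 2 genes that fell with AktI, and of Gadd45b, the paralogue of Gadd45g, is shown for the elements it holds. RefSeq promoter sequences (build GRCm38.p6) were matched for 9 of the 10 genes, with none for Dusp4. Each line is the 250 bases before the annotated start, read 5′ to 3′ on the gene's own strand, with matches to the searched motifs in capitals. Gadd45g lies on the plus strand (chr13:51846425-51846674), Gadd45b on the plus strand (chr10:80929841-80930090) and Dusp1 on the minus strand (chr17:26508473-26508722).
Gadd45g: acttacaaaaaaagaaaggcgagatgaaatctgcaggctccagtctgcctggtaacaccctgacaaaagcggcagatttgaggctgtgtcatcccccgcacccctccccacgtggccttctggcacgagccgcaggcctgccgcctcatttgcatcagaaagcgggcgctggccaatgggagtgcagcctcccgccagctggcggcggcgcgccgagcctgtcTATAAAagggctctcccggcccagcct
Gadd45b: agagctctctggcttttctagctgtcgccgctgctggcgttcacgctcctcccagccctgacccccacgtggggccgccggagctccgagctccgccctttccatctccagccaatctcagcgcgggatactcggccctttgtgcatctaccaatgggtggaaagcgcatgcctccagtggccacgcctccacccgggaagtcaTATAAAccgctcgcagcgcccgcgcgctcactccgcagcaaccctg
Dusp1: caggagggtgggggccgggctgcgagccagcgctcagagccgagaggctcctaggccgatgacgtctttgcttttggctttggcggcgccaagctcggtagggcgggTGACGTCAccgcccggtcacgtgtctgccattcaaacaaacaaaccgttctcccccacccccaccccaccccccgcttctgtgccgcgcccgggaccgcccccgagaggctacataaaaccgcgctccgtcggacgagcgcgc
The capitals mark the TATA box motif TATAAA, which lies 27 to 22 bases before the start of Gadd45g and 46 to 41 bases before that of Gadd45b, and which 12.4% of 32851 promoters hold in the same window. In Dusp1 they are TGACGTCA, the cyclic AMP response element bound by CREB and related factors, 143 to 136 bases before the start, which 1.55% of promoters hold. Both strands were searched for 7 motifs. The others were the AP-1 site TGANTCA (6.75% of promoters), the FOXO site GTAAACA (3.17%), the STAT site TTCNNNGAA (7.02%), the ETS site CCGGAA (12%) and the serum response element CArG box (1.47%). Of these the 9 promoters held only a pair of adjoining CArG boxes in Dusp5, at 82 to 73 and 72 to 63 bases before its start. A match is a description of letters, and none of these windows was tested for factor binding.

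Among the phosphatases of the nucleus, Dusp1 (MKP-1), which acts on p38, JNK and ERK, was the member that fell. Its log2 signal was 9.39, 9.25 and 9.21 in IL-2 cultures of mice 1 to 3 and 8.58, 8.72 and 8.68 with AktI. All 3 AktI arrays lay below all 3 IL-2 arrays, and within mice 1 to 3 AktI minus IL-2 alone was -0.80, -0.53 and -0.53 on the log2 scale. The fall was 1.54-fold (log2 fold change -0.62, standard error 0.0748, 95% interval -0.79 to -0.45, limma adjusted p = 0.00251), the 181st lowest effect of 18193 genes. It lay close to the 1.5-fold minimum. Without the IL-2 array of mouse 1 it was -0.57 (adjusted p = 0.0115) and without the AktI array of mouse 1 it was -0.58 (adjusted p = 0.0140), both under 1.5-fold. In the Pdpk1 experiment the log2 signal of Dusp1 was 8.40, 8.74 and 8.36 for Cre control and 8.43, 8.38 and 8.42 in Pdpk1-null CTL. These groups overlapped, with replicate 2 the highest Cre control array, and the log2 fold change was -0.10 (standard error 0.103, 95% interval -0.33 to 0.14, limma adjusted p = 0.739). Dusp1 is the only member on chromosome 17, where the floxed gene lies. Of the 99 measured genes between them, 2 (2.02%) passed after deletion, Gfer and Baiap3, where 1.01% of all genes rose and 0.357% fell.

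Dusp2 (PAC-1), a nuclear phosphatase first found in activated T cells, was lower on average in both comparisons without passing. Its log2 signal was 10.16, 10.17 and 10.07 in Cre control and 9.83, 9.96 and 9.92 in Pdpk1-null CTL, without overlap. The log2 fold change was -0.23 (standard error 0.0710, limma adjusted p = 0.162). With AktI the signals were 10.14, 9.72 and 9.92 against 10.53, 10.06 and 10.39 in IL-2 alone. The groups overlapped, but each mouse was lower with AktI, with differences of -0.39, -0.35 and -0.47. The log2 fold change was -0.40 (standard error 0.14, limma adjusted p = 0.168). With the mouse as a block the adjusted p was 0.0263, still at 1.32-fold and so under the fold minimum.

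Dusp4 (MKP-2), another nuclear phosphatase, had nearly equal effects in the comparisons, -0.19 (standard error 0.0971, limma adjusted p = 0.425) after deletion and -0.19 (standard error 0.0908, adjusted p = 0.336) with AktI. Its log2 signal ran from 7.40 to 7.72 in Cre control, 7.38 to 7.47 in Pdpk1-null, 7.21 to 7.38 in IL-2 and 7.0 to 7.29 in AktI cultures, so that both pairs of groups overlapped. Dusp5, a nuclear phosphatase selective for ERK, showed a log2 fold change of 0.24 (standard error 0.120, limma adjusted p = 0.393) after deletion. Its effect with AktI was -0.10 (standard error 0.0749, limma adjusted p = 0.589). Signals of 9.25 to 9.69 in Cre control overlapped with 9.56 to 9.82 in Pdpk1-null CTL, and the 10.02 to 10.23 of IL-2 alone overlapped with the 9.99 to 10.03 of AktI. Dusp10 (MKP-5), which prefers JNK and p38, had log2 fold changes of -0.17 (standard error 0.106, limma adjusted p = 0.508) after deletion and -0.05 (standard error 0.0760, adjusted p = 0.810) with AktI, with overlapping groups in both experiments. Its second probe set was below background in all groups.

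Dusp6 (MKP-3), the cytoplasmic phosphatase of ERK and a transcript that ERK signalling induces in many cells, had effects of opposite sign. Its log2 signal was 9.58, 9.82 and 9.70 in Cre control and 9.97, 10.03 and 10.08 in Pdpk1-null CTL. With AktI it was 9.93, 9.89 and 10.08, against 10.34, 10.10 and 10.34 in IL-2 alone. In neither experiment did the groups overlap: all Pdpk1-null arrays were above the Cre control arrays, and all AktI arrays were below the IL-2 arrays. Neither effect passed by itself, with log2 fold changes of 0.33 (standard error 0.0806, limma adjusted p = 0.0922) after deletion and -0.30 (standard error 0.0892, adjusted p = 0.113) with AktI. Within mice 1 to 3 AktI minus IL-2 alone was -0.41, -0.21 and -0.26.

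The Sprouty genes, whose products restrain signalling from receptors to Ras and ERK, differed from each other in direction. Spry1 was dim in the Pdpk1 experiment, with log2 signals of 5.19, 5.18 and 5.34 in Cre control and 5.55, 5.66 and 5.40 in Pdpk1-null CTL. In the Akt experiment it was 5.76, 5.87 and 5.94 in IL-2 alone and 6.21, 6.24 and 6.46 with AktI. The treated or deleted arrays were above their controls without overlap in both experiments. The log2 fold change was 0.30 (standard error 0.0877, limma adjusted p = 0.146) after deletion. With AktI it was 0.44 (standard error 0.0885, limma adjusted p = 0.0248), a 1.36-fold difference and so under the 1.5-fold minimum, and the differences within mice were 0.44, 0.37 and 0.52.

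Spry2 was lower on average in both comparisons, without passing. Its log2 signal was 7.12, 7.57 and 7.22 in Cre control and 6.85, 6.92 and 6.86 in Pdpk1-null CTL. In IL-2 alone it was 6.02, 5.77 and 5.80, and with AktI 5.74, 5.34 and 5.57. The groups did not overlap in either experiment, and replicate 2 was the highest Cre control array. The log2 fold change was -0.42 (standard error 0.114, limma adjusted p = 0.119) after deletion, the 252nd lowest of 18193 genes, and -0.31 (standard error 0.112, limma adjusted p = 0.182) with AktI, so that neither passed. Without Cre control replicate 2 the first was -0.29 (adjusted p = 0.224). The second probe set of Spry2 was below background in all groups, with log2 fold changes of 0.06 and -0.13.

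Gadd45g, first cloned as a transcript induced by IL-2, had the largest fall of the 10 genes with AktI. Its log2 signal was 11.93, 11.73 and 11.85 in IL-2 cultures of mice 1 to 3 and 10.30, 10.33 and 10.67 with AktI. Every AktI array was more than 1 log2 unit below every IL-2 array, and the differences within mice were -1.63, -1.40 and -1.18. The fall was 2.64-fold (log2 fold change -1.40, standard error 0.109, 95% interval -1.65 to -1.15, limma adjusted p = 0.000295), the 27th lowest effect of 18193 genes. It passed without each of the 6 arrays in turn, at adjusted p from 0.000352 to 0.00314. In Cre control CTL the signal was 11.59, 11.67 and 11.48, and in Pdpk1-null CTL 10.99, 11.29 and 11.09. The deleted arrays lay below the control arrays without overlap, but the difference of 1.38-fold was under the fold minimum (log2 fold change -0.46, standard error 0.0935, 95% interval -0.67 to -0.25, limma adjusted p = 0.0528). It was the 205th lowest effect after deletion. The limma adjusted p of this effect was 0.0456 with quantile normalization, 0.0330 without dim probe sets and 0.0281 in 1 model over all arrays. It was 0.0568 with the replicate block and 0.05003 with arrays at the same median. With an array left out it was under 0.05 only without Pdpk1-null replicate 2 (0.0251). The fold minimum was missed in all of these.

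Gadd45b, which is induced by antigen receptor and inflammatory signals, did not share these values. Its log2 signal was 7.48, 7.17 and 7.52 in Cre control and 7.66, 7.74 and 7.79 in Pdpk1-null CTL, without overlap (log2 fold change 0.34, standard error 0.101, limma adjusted p = 0.158). With AktI it was 7.25, 7.38 and 7.62 against 7.34, 7.47 and 7.39 in IL-2 alone. These groups overlapped, and the differences within mice were -0.09, -0.09 and 0.23 (log2 fold change 0.02, standard error 0.0981, 95% interval -0.21 to 0.24, limma adjusted p = 0.956). A second Gadd45b probe set above background gave 0.43 (limma adjusted p = 0.147) and 0.26 (adjusted p = 0.268), and the last gave -0.01 and -0.03.

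**Figure D2:**
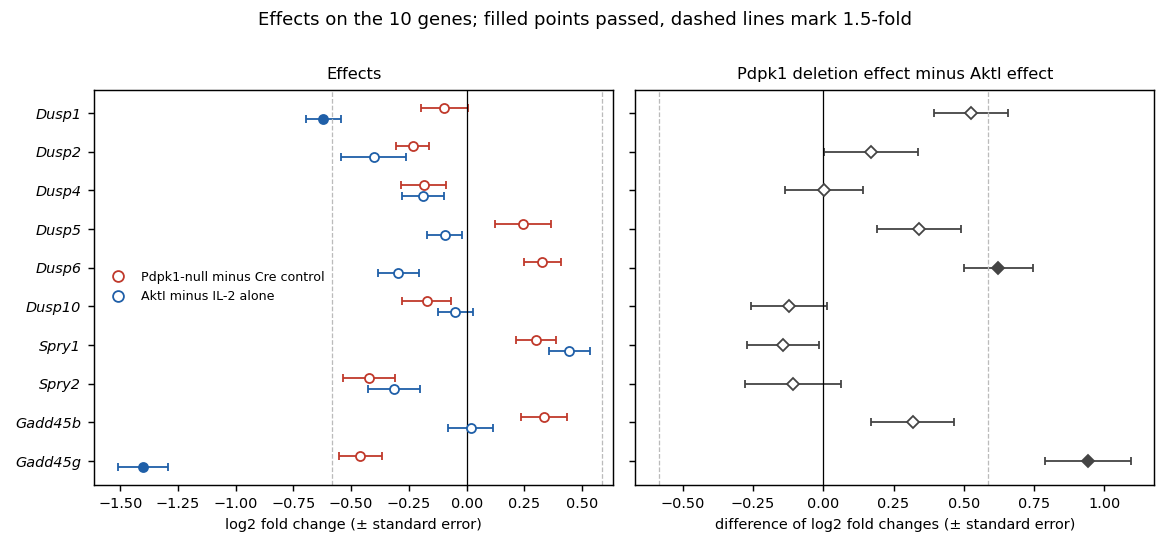
Left, log2 fold change of each of the 10 genes in Pdpk1-null against Cre control CTL (red) and in AktI against IL-2 cultures (blue); right, the first effect minus the second. Bars are standard errors (n = 3 arrays per group), filled points passed an adjusted p under 0.05 and 1.5-fold, and dashed lines mark 1.5-fold. Dusp1 (-0.62) and Gadd45g (-1.40) are filled on the left, and Dusp6 (0.62) and Gadd45g (0.94) on the right.

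The effects of Pdpk1 deletion and of AktI differed from each other for Gadd45g and Dusp6. The difference was tested as the deletion effect minus the AktI effect in a limma model of all 12 arrays. Of the 10 genes 2 were higher and 0 lower in this difference, against 0.319% and 0.203% of all genes. At an unadjusted p under 0.05, 4 were higher and 0 lower, against 5.66% and 5.42% of all genes. For Gadd45g the difference was 0.94 (standard error 0.152, 95% interval 0.61 to 1.27, limma adjusted p = 0.0156), with a deletion effect that was smaller and of the same sign. It did not pass without Cre control replicate 3, the IL-2 array of mouse 1 or the AktI array of mouse 2 (adjusted p 0.0519 to 0.0530). For Dusp6 it was 0.62 (standard error 0.123, 95% interval 0.36 to 0.89, limma adjusted p = 0.0471). This call was at the threshold. It ended without any 1 array other than Cre control replicate 2 or the IL-2 array of mouse 2 (adjusted p 0.0517 to 0.141), with quantile normalization (0.0501) and with arrays set to the same median (0.0550).

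For Dusp1 the difference was 0.52 (standard error 0.131, 95% interval 0.24 to 0.81, limma adjusted p = 0.133), so that its fall with AktI was not shown to differ from its value after deletion. Without Cre control replicate 2 it was 0.64 and passed (adjusted p = 0.0217). Differences for the other members were 0.34 for Dusp5 (limma adjusted p = 0.456), 0.32 for Gadd45b (adjusted p = 0.493), 0.17 for Dusp2 (adjusted p = 0.799), 0.00 for Dusp4 (adjusted p = 0.998), -0.11 for Spry2 (adjusted p = 0.889), -0.12 for Dusp10 (adjusted p = 0.824) and -0.14 for Spry1 (adjusted p = 0.767). The 95% interval for Dusp4 was -0.30 to 0.30 and that for Spry1 -0.42 to 0.13, and a missed threshold does not show that the effects were equal.

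Markers of other cells moved in the same samples as the falls with AktI. Cd68, a lysosomal protein of macrophages that is also made by other cells, fell 2.46-fold (log2 fold change -1.30, limma adjusted p = 0.00563), and the basophil protease Mcpt8 fell to a mean below background, so that its size is not exact (-1.09, adjusted p = 0.0465). Other markers of these lists went the other way. With AktI 7 of the 9 measured myeloid markers were below 0 and 2 above, among them Fcgr3 (0.38, limma adjusted p = 0.150). Of the 5 measured mast cell and basophil markers 2 were below 0 and 3 above, among them Kit (0.31, limma adjusted p = 0.248). Ighm was lower with AktI in each mouse, at 10.57, 11.58 and 11.39 against 11.18, 12.32 and 11.75, but did not pass (-0.57, limma adjusted p = 0.411), nor did it after deletion (0.36, adjusted p = 0.350). Among the T cell markers the cytolytic protein Prf1 fell 4.61-fold with AktI (-2.20, limma adjusted p = 0.000164). After deletion Fcgr3, an Fc receptor of myeloid and NK cells, rose 1.87-fold (0.91, limma adjusted p = 0.0486) and the T cell adhesion molecule Cd2 rose 1.59-fold (0.67, adjusted p = 0.0151). The summed myeloid signal did not overlap between groups in either experiment, higher in Pdpk1-null than in Cre control and lower with AktI than in IL-2 alone. A linear sum follows its brightest and most changed genes. The only myeloid markers that passed were Fcgr3 after deletion and Cd68 with AktI, so these sums do not show a shift of the whole list. The summed B cell signal, which was mostly Ighm, did not overlap after deletion, where it was higher in Pdpk1-null CTL. It overlapped between AktI and IL-2 alone. The summed T cell signal was 57255 to 61518 with AktI and 68289 to 71582 in IL-2 alone, without overlap. With AktI the granzyme genes Gzma and Gzmb had log2 fold changes of -0.43 and -0.34. Those of Cd3d, Cd3e, Cd3g, Cd8a and Cd2 were 0.00, -0.09, 0.00, 0.07 and 0.21. Cd8b1 was 1.42-fold higher (0.50, limma adjusted p = 0.0035), under the fold minimum. The part of all these markers in the results for Gadd45g, Dusp1, Dusp6 and the immediate early genes was not tested.

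Among the other MAP kinase phosphatases, Dusp7 rose with AktI. Of 7 genes measured 1 rose and 0 fell by limma, 1 was higher and 2 were lower at an unadjusted p under 0.05, and the median log2 fold change was -0.01. Over all genes, for this list and those below, 1.51% rose and 1.03% fell with AktI (9.62% and 10.7% at the unadjusted p). After deletion 1.01% of all genes rose and 0.357% fell (8.22% and 9.04% at the unadjusted p). Dusp7, a cytoplasmic phosphatase of ERK closely related to Dusp6, rose 1.82-fold, from 7.48, 7.59 and 7.44 in IL-2 alone to 8.29, 8.29 and 8.52 with AktI (log2 fold change 0.86, standard error 0.0846, limma adjusted p = 0.000931). All of its 3 probe sets passed, the others with 0.81 and 0.75. After deletion its effect was 0.33 (limma adjusted p = 0.108), and the difference of the effects was -0.54 (adjusted p = 0.0945). Dusp14 was lower with AktI at a limma adjusted p of 0.0183 but 1.44-fold (log2 fold change -0.53), and it passed without the IL-2 array of mouse 2 (-0.61) or the AktI array of mouse 3 (-0.59). After deletion 0 of the 7 passed, as none reached 1.5-fold. At an unadjusted p under 0.05, 2 were higher and 2 lower, and the median was -0.08. The largest changes there were 0.33 for Dusp7 and -0.29 for Dusp16.

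Of the other Sprouty and Spred genes, which also restrain Ras to ERK signalling, 0 of 5 passed in either comparison, as none reached 1.5-fold. At an unadjusted p under 0.05, 0 were higher and 1 lower after deletion, and 0 were higher or lower with AktI. Their medians were 0.03 and -0.14. Spry4 had the largest change of each comparison, -0.22 (limma adjusted p = 0.318) after deletion and -0.20 (adjusted p = 0.385) with AktI, followed by Spred2 with 0.16 and -0.17.

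Among Gadd45a and the partners of Gadd45 proteins, 6 of 7 were measured, with medians of 0.09 after deletion and 0.04 with AktI. With AktI 1 fell and 0 rose by limma, and an unadjusted p under 0.05 held 1 in each direction. Cdkn1a, the cell cycle inhibitor p21 that Gadd45 proteins bind, fell 1.60-fold with AktI, from 11.05, 11.06 and 11.23 to 10.23, 10.45 and 10.62 (log2 fold change -0.68, standard error 0.104, limma adjusted p = 0.00788). The groups did not overlap. The call ended without the AktI array of mouse 1 (-0.58) and with the mean of its probe sets (-0.57), since the other probe set gave -0.47 (adjusted p = 0.0781). After deletion 0 of the 6 passed, as none reached 1.5-fold, with 0 higher and 1 lower at an unadjusted p under 0.05. There Cdkn1a had -0.30 (limma adjusted p = 0.188) and Gadd45a 0.17 (adjusted p = 0.797). Gadd45a was below background in the Akt experiment. Map3k4, the kinase that Gadd45 proteins activate, was 1.21-fold higher with AktI (0.27, limma adjusted p = 0.0389), under the fold minimum.

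**Figure D3:**
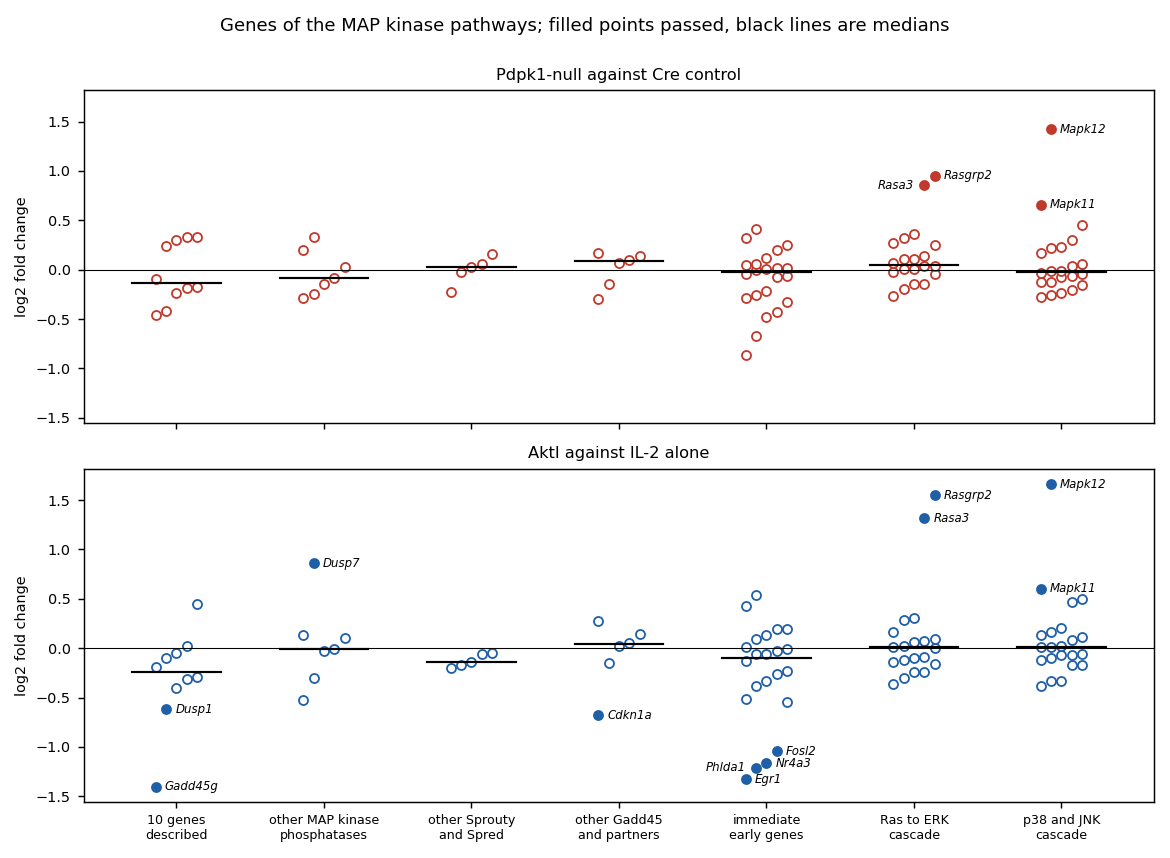
Log2 fold change of every measured gene of the MAP kinase lists in Pdpk1-null against Cre control CTL (top) and with AktI against IL-2 alone (bottom). Each point is a gene, filled where it passed, and black lines are medians. Immediate early genes hold 4 filled points below 0 with AktI and 0 after deletion.

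Immediate early genes, which are transcribed within minutes of a signal and of which several respond to ERK, fell in part with AktI. Of 22 measured, 4 fell and 0 rose, where 1.03% of all genes fell and 1.51% rose. At an unadjusted p under 0.05, 9 were lower and 3 higher (median -0.10), against 10.7% and 9.62% of all genes. Egr1, a zinc finger factor induced through ERK and serum response factor, fell 2.51-fold, from 8.0, 7.57 and 7.58 to 6.33, 6.39 and 6.44 (log2 fold change -1.33, standard error 0.116, limma adjusted p = 0.000538). It had 0.20 after deletion (limma adjusted p = 0.687), with overlapping signals of 7.98, 8.39 and 7.80 and of 7.97, 8.60 and 8.21. The difference of its effects, 1.53 (standard error 0.240, limma adjusted p = 0.0134), passed. Phlda1 fell 2.32-fold with AktI (-1.21, limma adjusted p = 0.00209), the nuclear receptor Nr4a3 2.24-fold (-1.17, adjusted p = 0.00322) and the AP-1 subunit Fosl2 2.06-fold (-1.04, adjusted p = 0.00134). Other probe sets of Nr4a3 gave -0.09 and 0.16 and that of Fosl2 gave -0.27 (limma adjusted p = 0.0672), and the mean of its probe sets ended the call of Nr4a3 (-0.37).

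After Pdpk1 deletion 0 of the 22 immediate early genes passed by limma or SAM, 2 were higher and 5 lower at an unadjusted p under 0.05, and the median was -0.02. The largest changes were -0.86 for Phlda1 (limma adjusted p = 0.0798) and -0.67 for Nr4a3 (adjusted p = 0.105). Phlda1 passed with the replicate block (0.0103) and in 1 model over all arrays (0.0226). Without Pdpk1-null replicate 2 both passed, at 0.0465 for Phlda1 and 0.0378 for Nr4a3. Not every early gene was lower with AktI: Myc was 1.46-fold higher (log2 fold change 0.54, limma adjusted p = 0.00304), under the fold minimum. Fosl1, 1.46-fold lower with AktI (-0.54, limma adjusted p = 0.0221), passed without the IL-2 array of mouse 2 (-0.65) or the AktI array of mouse 3 (-0.60).

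In the Ras to ERK cascade 20 of 25 genes were measured, and the same 2 rose in both comparisons, with 0 that fell. Rasgrp2, an exchange factor that activates Rap1 and Ras family proteins, rose 1.93-fold after deletion, from 7.09, 6.68 and 6.98 to 8.14, 7.67 and 7.79 (log2 fold change 0.95, standard error 0.142, limma adjusted p = 0.0186). With AktI it rose 2.93-fold, from 8.01, 8.33 and 8.12 to 9.69, 9.86 and 9.57 (1.55, standard error 0.105, limma adjusted p = 0.000167). All of its 4 probe sets passed with AktI, and 2 of them after deletion, where the others gave 0.46 (limma adjusted p = 0.070) and 0.70 (adjusted p = 0.0806). Rasa3, a GTPase activating protein that turns Ras and Rap off, rose 1.81-fold after deletion (0.85, standard error 0.116, limma adjusted p = 0.0132). Its rise with AktI was 2.49-fold (1.31, standard error 0.0719, limma adjusted p = 7.25e-05). The calls after deletion ended without Cre control replicate 2, Cre control replicate 3 or Pdpk1-null replicate 3 (adjusted p 0.0579 to 0.0733 over both genes). The kinases and GTPases in the middle of the cascade had small effects, and the medians of the list were 0.05 and 0.01. At an unadjusted p under 0.05, 6 of the 20 were higher and 2 lower after deletion, against 8.22% and 9.04% of all genes. With AktI 4 were higher and 4 lower, against 9.62% and 10.7% of all genes.

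In the p38 and JNK cascade 22 of 23 genes were measured, and the same 2 rose in both comparisons, with 0 that fell (medians -0.03 and 0.01). At an unadjusted p under 0.05, 7 were higher and 3 lower after deletion, against 8.22% and 9.04% of all genes. With AktI 5 were higher and 5 lower, against 9.62% and 10.7% of all genes. Mapk12, the gamma form of p38, rose 2.68-fold after deletion, from 4.44, 4.08 and 4.55 to 6.18, 5.50 and 5.65 (log2 fold change 1.42, standard error 0.183, limma adjusted p = 0.0107), and its mean in Cre control lay below background, so that the size is not exact. With AktI it rose 3.17-fold, from 6.65, 7.01 and 6.14 to 8.24, 8.39 and 8.16 (1.66, standard error 0.188, limma adjusted p = 0.00179). Its other probe set gave 0.05 and 0.42 and passed in neither. Mapk11, the beta form of p38, rose 1.58-fold after deletion (0.66, standard error 0.122, limma adjusted p = 0.0398). With AktI the rise was 1.52-fold (0.60, standard error 0.0785, limma adjusted p = 0.00355). The first call ended without any 1 of its 6 arrays, the second without the IL-2 array of mouse 3 (0.53), and both with the mean of its probe sets (0.45 and 0.49). Mapk14, the main p38 of most cells, did not pass in either comparison.

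**Figure D4:**
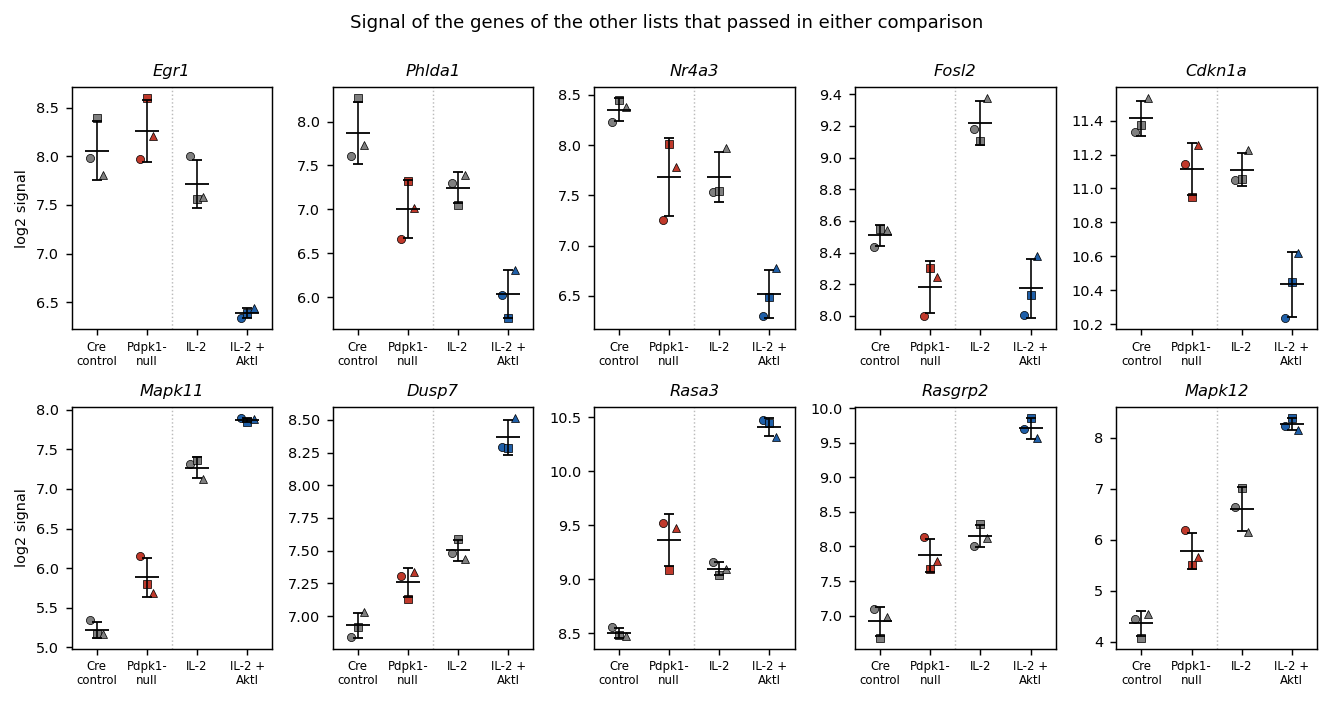
Log2 signal on all 12 arrays of the 10 genes of the other MAP kinase lists that passed in either comparison, ordered by the AktI effect. Symbols and bars are as in the plot of the 10 chosen genes by array. From Egr1 to Cdkn1a the AktI arrays lie below those of IL-2 alone, and from Mapk11 to Mapk12 above them.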

How the data were processed

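Affymetrix mouse 430 2.0 arrays, 1 for each of the 12 cultures, were the source. The authors deposited log2 signals, which they had made by robust multichip averaging in Expression Console 1.1, and no further normalization was applied. The experiments were taken as normalized separately because their array medians differ. Of 45101 probe sets, 64 controls were left out. In R 4.3.3, limma 3.58.1 (lmFit and eBayes, no covariate) was run on the 6 arrays of a comparison, with Benjamini-Hochberg adjustment over 45037 probe sets. The difference of the effects was fitted as a contrast of the 4 group means over all arrays. SAM was rewritten over the 20 relabellings of 6 arrays. Both tests were tested on simulated data. Named were all 10 genes, and in each MAP kinase list up to 4 passing genes with the largest change per comparison, or the 2 largest changes where none passed, with Pdpk1 and passing cell type markers. Further genes (Dusp14, Map3k4, Myc, Fosl1, Gfer, Baiap3, Mapk14, Ighm) were chosen after their values were seen. The markers Kit, Gzma, Gzmb, Cd3d, Cd3e, Cd3g, Cd8a and Cd8b1 passed in neither comparison and were also named outside this rule. The members and lists were chosen with earlier results of these data known.

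Labels tie IL-2 and AktI arrays by mouse. Residuals from the group means correlated at 0.0343 to 0.17 between arrays of the same mouse and at -0.102 to 0.0383 between arrays of different mice. Pdpk1 replicates share only a number. Arrays left out, a replicate block and other settings were tried. With 3 arrays a group their number limits the precision, and a permutation of 3 against 3 gives p = 0.1 at the smallest.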

Additional observations from a re-analysis of the deposited data

Results flagged for a closer look

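The effects of Pdpk1 deletion and AktI on Gadd45g differed by 0.9422 on the log2 scale, tested as an interaction over all 12 arrays: deletion gave -0.46 and AktI -1.40 (limma adjusted p of the difference = 0.0156). Perturbation and experiment cannot be told apart in this test. For Dusp6 the same test gave a difference of 0.6227, with 0.33 after deletion and -0.30 with AktI (limma adjusted p of the difference = 0.0471). Neither effect of Dusp6 passed by itself. The call of its difference ended without most single arrays, with quantile normalization and with arrays set to the same median.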

How the results depend on the processing

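With no fold minimum, 1 of the 10 genes (Spry1) was higher with AktI, and with a 2-fold minimum 1 (Gadd45g) was lower. The count with a higher difference of the effects, 2 as reported, was 1 with quantile normalization, 1 with arrays at the same median and 0 with a 2-fold minimum. Leaving out each array in turn, it ran from 0 to 3 and the count lower with AktI from 1 to 2. The sign turned for values near 0: the difference of Dusp4 was -0.01148 with arrays at the same median, and that of Spry2 was 0.04018 with the mean of all probe sets. With an array left out, Dusp1 after deletion ran from -0.1654 to 0.02227, Dusp10 with AktI from -0.08075 to 0.001799, Gadd45b with AktI from -0.0835 to 0.1001, the difference of Dusp4 from -0.1037 to 0.08345 and that of Spry2 from -0.2126 to 0.02548. The replicate block, which pairs arrays by mouse in the Akt experiment, changed no call of the 10 genes: limma adjusted p was 0.0014 for Gadd45g and 0.0122 for Dusp1 with AktI, 0.0266 and 0.0488 for the differences of Gadd45g and Dusp6. A mouse block in the AktI arrays alone, chosen after seeing the data, gave 0.0190 and 0.0398. Of 290 member values under other settings, 282 kept direction and side of the threshold, and of 240 with an array left out, 213 did. Among the other settings, direction could turn only with quantile normalization, arrays at the same median or the mean of several probe sets. The rest keep the fold change, so direction there was fixed in advance and the count of 282 is no measure of its stability. Of 192 counts in the other MAP kinase lists, 163 stayed within 1.5 times. Over all genes, leaving out an array moved the calls after deletion from 183 higher and 65 lower to between 73 and 243 higher and between 25 and 85 lower, and those of the difference from 58 and 37 to between 25 and 69 and between 25 and 55. With no fold minimum the AktI calls were 665 higher and 534 lower, and with a 2-fold minimum 93 and 58.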
